A study of Mus musculus with 25 samples.

Results

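The genes described here encode main enzymes of phase II conjugation. These are genes of glutathione S-transferases (Gst), UDP-glycosyltransferases of families 2 and 3 (Ugt2, Ugt3) and cytosolic sulfotransferases (Sult). They were taken by name: a gene was included when its symbol, standing alone on a probe set, began with Gst, Ugt1, Ugt2, Ugt3 or Sult followed by a letter or digit. This gave 44 of the 18194 genes measured: 21 Gst, 8 Ugt2, 2 Ugt3 and 13 Sult genes. No Ugt1 gene entered, because each of the 3 Ugt1a probe sets carries 8 symbols. Gstcd entered by its symbol alone and is not an established conjugating enzyme.

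Conjugating enzymes attach a polar group to drugs, bilirubin, bile acids, steroids and reactive metabolites so that these can be exported in bile or urine. Glutathione S-transferases use glutathione, Ugt2 enzymes use UDP-glucuronic acid, Ugt3 enzymes are known to use other UDP-sugars, and sulfotransferases use the activated sulfate PAPS. The adult hepatocyte is a main site of all of these reactions, whereas the fetal liver also houses blood formation.

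Livers of C57/B6 mice, with no genetic change or drug treatment given in the labels, were dissected at 14 ages and pooled, and pool RNA was hybridised to whole-genome arrays. The 8 fetal stages ran daily from embryonic day 11.5 (E11.5) to E18.5, and the 6 postnatal stages were the day of birth (Day0), Day3, Day7, Day14, Day21 and mature mice of 18 weeks (adult). Pools were largest at the youngest ages, with 12 livers for E11.5, 9 for E12.5 and for E13.5, 6 for E14.5 and for E15.5, and 3 for every older age. Each stage is therefore 1 pool, measured on 2 arrays at 11 stages and on 1 array at E18.5, Day7 and Day14. The repeat arrays are technical, so p-values of steps between single stages measure the spread between arrays and not between animals.

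Values are log2 intensities, averaged over the arrays of a stage. A gene was called when the adjusted p of limma was under 0.05 over all 18194 genes and the change was at least 1 log2 unit, which is a 2-fold change. The array medians lay between 5.41 and 5.53, and repeat arrays correlated at r = 0.986 to 0.996 over genes. Repeat arrays of a stage differed for these 44 genes by a median of 0.15 and by at most 1.16 log2 units.

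Markers showed what else was in the pools. The mean level of 11 hepatocyte markers was 8.58 at E11.5, 10.54 at E17.5, 12.33 at E18.5 and 13.05 in the adult, while that of 8 erythroid markers was 10.04, 10.82, 10.88 and 6.47. In such bulk samples a larger share of hepatocytes and more RNA per hepatocyte cannot be told apart. Single pools also carried markers of other organs: skeletal muscle Acta1 was 9.56 at E18.5 and at most 6.03 elsewhere, and kidney Umod was 8.02 at Day7 and at most 4.46 elsewhere. Exocrine pancreas Ctrb1 was 7.49 at Day0, 7.17 at Day7 and 7.65 at Day14. The labels give no sex. The X-linked Xist and the Y-linked Eif2s3y, looked up after the values had been seen, were 10.27 and 4.15 at Day21 but 6.93 and 7.21 in the adult, and 7.27 and 7.87 at E17.5 but 10.53 and 4.59 at E18.5. The plot of marker levels shows these courses.

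**Figure D1:**
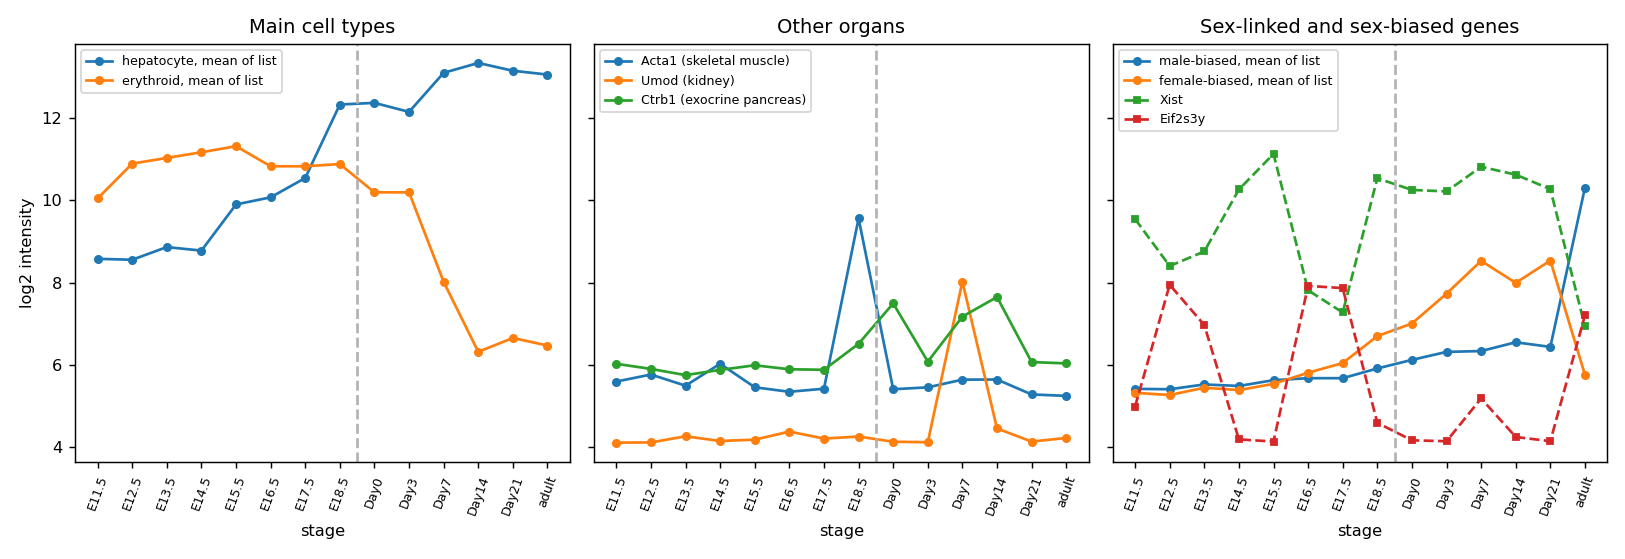
Log2 intensity (y axis) by stage (x axis) of cell type markers (left), single markers of other organs (middle) and sex-linked or sex-biased genes (right); points are stage means and the dashed line is birth. Acta1 stands out at E18.5, Umod at Day7, and the male-biased list in the adult. Eif2s3y is high at E12.5, E13.5, E16.5, E17.5 and in the adult.

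Of the 44 genes, 34 lie in 9 runs of neighbouring coding genes in the RefSeq order of assembly GRCm38.p6, with at most 5 other coding genes between neighbours. The longest run holds 11 of them on chromosome 5, in the order Ugt2b34, Ugt2b1, Ugt2b35, Ugt2b36, Ugt2b5, Ugt2b37, Ugt2a3, Ugt2b38, Sult1b1, Sult1d1 and Sult1e1. Another on chromosome 3 holds 7 Gstm genes. Near-identical neighbours, such as the Gstm, Ugt2b and Sult2a genes, can share probes, so single values within these runs are uncertain to that extent.

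The promoters of 6 genes are shown because they belong to neighbours with different courses (Ugt2b5, Ugt2b36, Ugt2b38, Ugt2b1 and Sult1d1) and to Gsta3, the Gst gene with the largest fetal rise. Each is the RefSeq sequence of GRCm38.p6 over the 150 bases before the start site, 5′ to 3′ on the gene's strand. Capitals mark matches to the C/EBP core TTGCNNAA, the antioxidant response element core TGACNNNGC or the first part of the HNF1 motif, searched on both strands.
Ugt2b5 (chr5:87140341-87140490, minus strand): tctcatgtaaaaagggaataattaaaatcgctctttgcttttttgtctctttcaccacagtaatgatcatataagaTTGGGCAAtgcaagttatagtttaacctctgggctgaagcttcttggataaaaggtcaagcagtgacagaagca
Ugt2b36 (chr5:87092556-87092705, minus strand): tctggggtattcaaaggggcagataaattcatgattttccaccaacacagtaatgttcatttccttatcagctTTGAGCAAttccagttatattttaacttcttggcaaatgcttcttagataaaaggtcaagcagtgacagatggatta
Ugt2b38 (chr5:87424204-87424353, minus strand): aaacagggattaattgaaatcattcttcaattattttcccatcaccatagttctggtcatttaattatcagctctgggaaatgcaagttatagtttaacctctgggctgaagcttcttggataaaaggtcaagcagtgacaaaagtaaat
Ugt2b1 (chr5:86926504-86926653, minus strand): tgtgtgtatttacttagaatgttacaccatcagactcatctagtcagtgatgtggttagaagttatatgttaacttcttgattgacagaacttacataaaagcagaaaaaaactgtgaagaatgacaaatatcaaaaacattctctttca
Gsta3 (chr1:21240435-21240584, plus strand): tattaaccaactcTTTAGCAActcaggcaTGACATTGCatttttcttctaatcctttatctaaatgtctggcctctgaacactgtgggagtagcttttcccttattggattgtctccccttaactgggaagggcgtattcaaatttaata
Sult1d1 (chr5:87569007-87569156, minus strand): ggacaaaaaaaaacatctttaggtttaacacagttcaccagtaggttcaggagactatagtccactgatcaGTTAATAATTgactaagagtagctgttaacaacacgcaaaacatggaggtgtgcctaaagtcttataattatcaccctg
The C/EBP core was found in the promoters of Ugt2b5 and Ugt2b36 and not in this window of Ugt2b38, whose 150 bases are 75.6% identical to those of Ugt2b5 and 69.7% identical to those of Ugt2b36. Promoter sequences of 39 of the 44 genes were matched, 51 windows in all, each of 250 bases before to 50 bases after the start. In these windows TTGCNNAA occurred in 4 of 8 Ugt2 promoters (50%), 4 of 28 Gst (14.3%) and 2 of 14 Sult promoters (14.3%), against 10.8% of all 32851 promoters. In Ugt2b1 the match spans the start site, so it is not in the stretch shown, and in Ugt2a3 it lies just after the start. TGACNNNGC occurred in 3 of 28 Gst promoters (Gsta3, Gstm5 and Gstm7; 10.7%) and 12.4% of all, and the first part of the HNF1 motif in Sult1d1 alone among these genes and in 0.399% of all. A match is a description of letters and not a binding site.

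**Figure D2:**
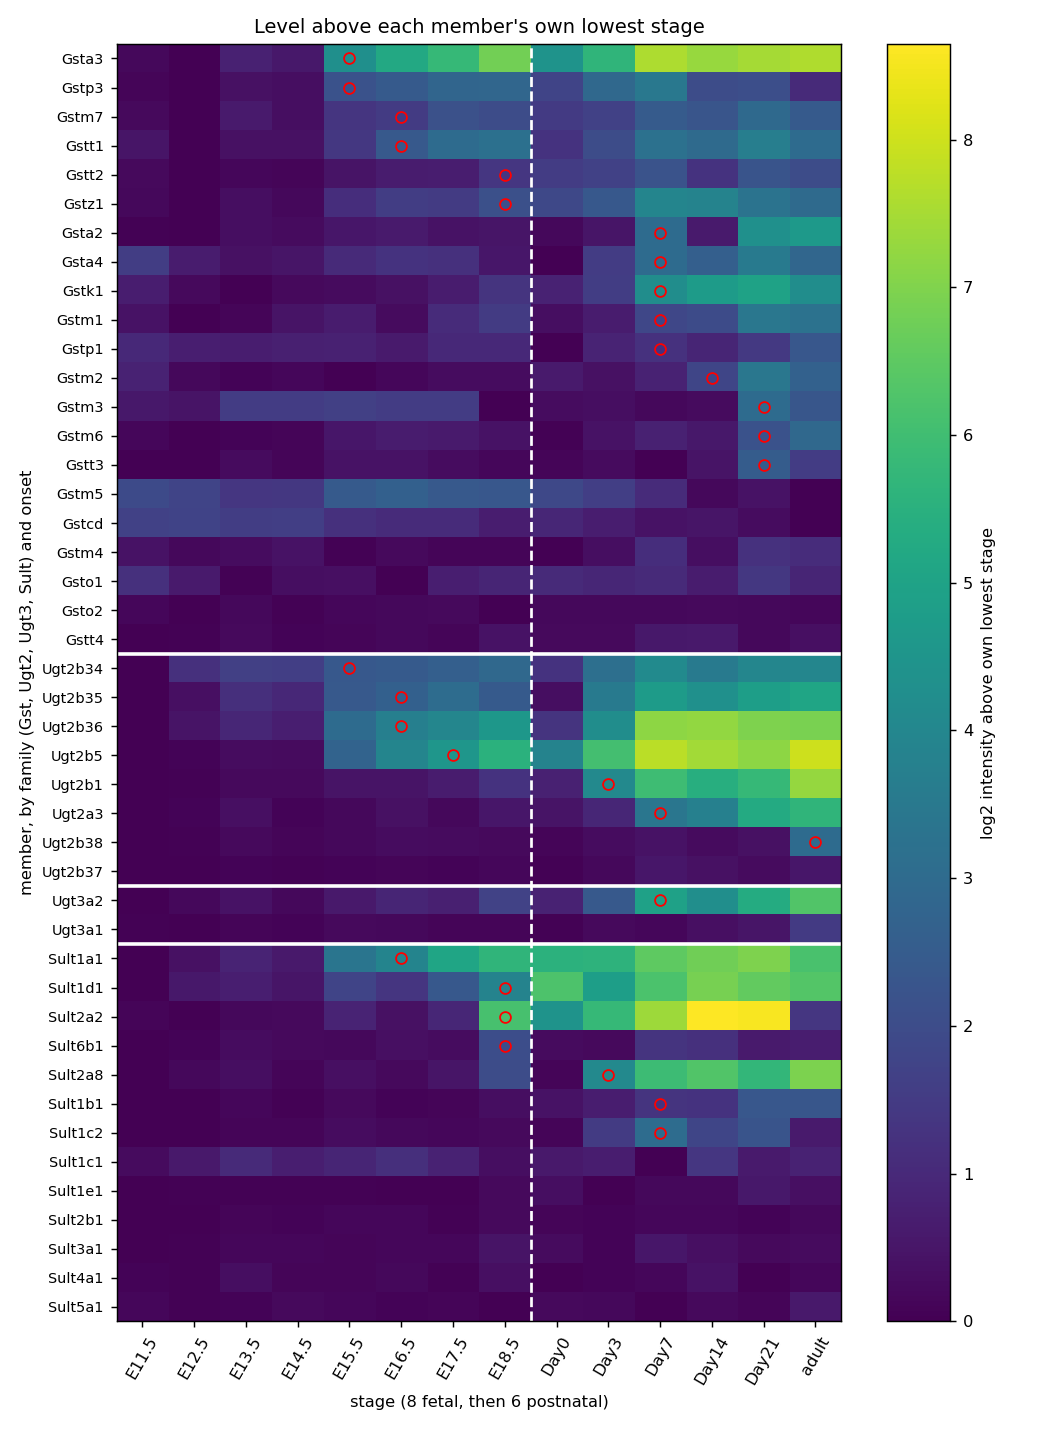
Level of each of the 44 genes (rows, by family and onset) at each stage (columns) in log2 units above that gene's own lowest stage; red circles mark the onset of the 30 genes that rose by the description given in the text, and the dashed line is birth. The rises begin at different stages, and 5 fetal onsets fall on E18.5.

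More of the phase II genes were higher after birth than lower. Between the 8 fetal and the 6 postnatal stage means 18 genes rose and 1 fell (Gstm5). The background is 5.01% of all genes called higher and 4.50% called lower. The 18 comprise 7 of 21 Gst, 4 of 8 Ugt2, 1 of 2 Ugt3 and 6 of 13 Sult genes. The median change was 1.24 log2 units, against 0.01 over all genes. Without the 3 stages measured on 1 array, 11 rose and 0 fell, and the share of all genes in that setting was not counted. Over the same comparison 8 of 11 hepatocyte markers rose and 7 of 8 erythroid markers fell; the part of the changing cell makeup in the counts was not tested. The fetal and postnatal stage means did not overlap for 2 of the 44 genes, Sult1b1 and Sult1d1, while 4.09% of all genes had no overlap.

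**Figure D3:**
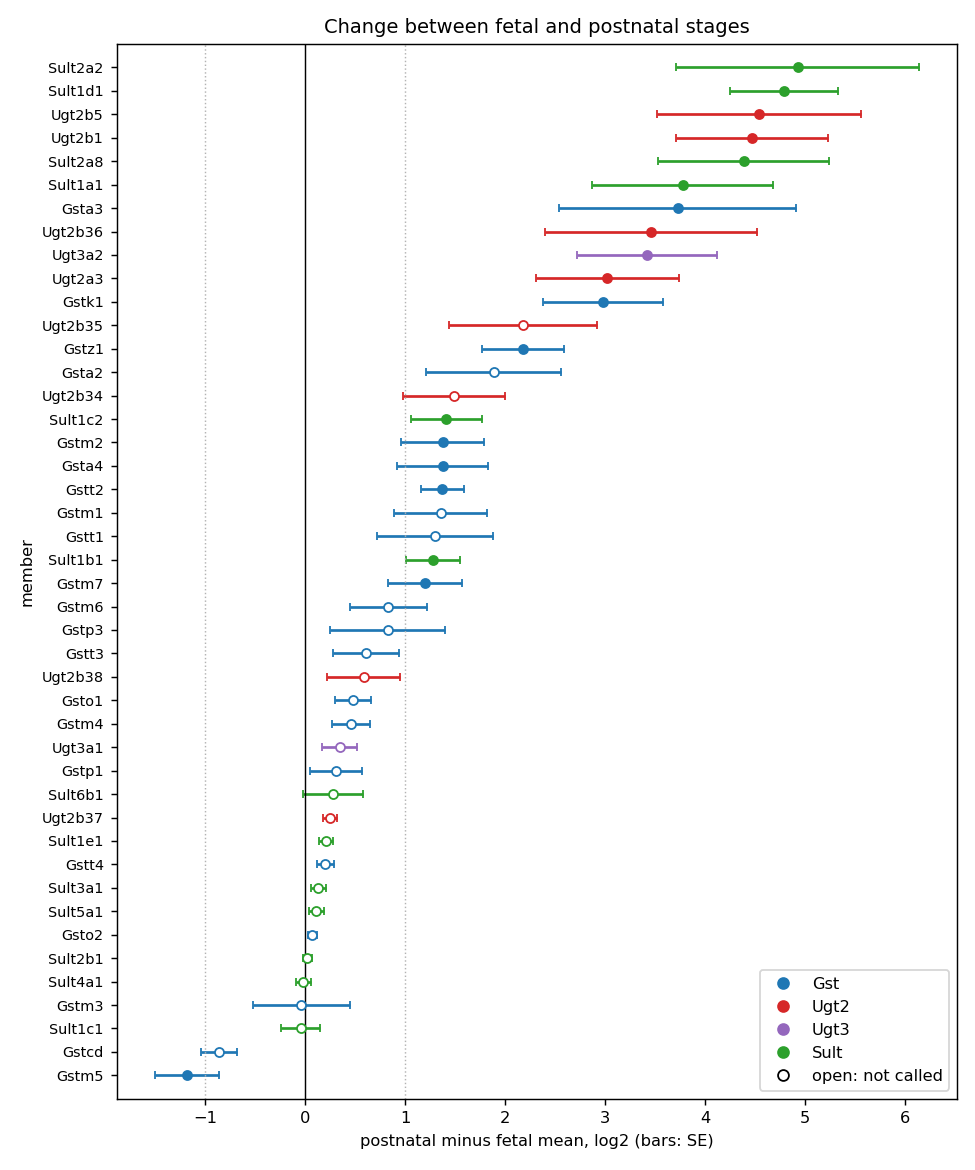
Postnatal minus fetal mean of log2 intensity (x axis) for each of the 44 genes (y axis), with bars for the standard error; filled points were called and open points were not, and colours are families. The largest values belong to Sult2a2, Sult1d1, Ugt2b5 and Ugt2b1, and Gstm5 is the only gene called lower.

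The sulfotransferases held both the widest and the flattest courses. Sult1d1, known for sulfating catecholamines, had a fetal range of 4.88 to 8.74 (median 5.91) and a postnatal range of 9.73 to 11.75 (median 11.17). It rose by 4.79 ± 0.54 log2 units (SE, 8 and 6 stages; adjusted p = 0.000181), and every postnatal pool was above every fetal pool. Sult1a1, the main phenol sulfotransferase, ranged from 5.63 to 11.27 (median 7.74) before and from 11.19 to 12.60 (median 11.95) after birth, a change of 3.77 ± 0.90. Its highest fetal pool, E18.5, lay within the postnatal range, so the classes overlapped. Sult2a8, of the hydroxysteroid class, was 4.95 to 6.97 (median 5.22) before and 5.08 to 11.88 (median 10.78) after birth, a change of 4.38 ± 0.85. Sult2a2, of the same class, was 4.35 to 10.49 (median 4.66) before and 5.71 to 13.00 (median 10.94) after birth, a change of 4.92 ± 1.22. Its highest fetal pool was E18.5, on 1 array, and its lowest postnatal pool was the adult, so the classes overlapped. Its range of 8.65 log2 units was the widest of the 44 genes. Sult1b1 (1.28 ± 0.27) and Sult1c2 (1.41 ± 0.35) rose from fetal levels of at most 4.63 and 5.04; Sult1c2 was not called without the 3 stages on 1 array.

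The estrogen, cholesterol and brain-type sulfotransferases were dim throughout. Sult1e1, Sult2b1, Sult3a1, Sult4a1 and Sult5a1 stayed below a level of 6 (an intensity of 64) in every pool and spanned 0.22 to 0.59 log2 units. Sult1c1 was between 4.72 and 6.09. Sult6b1 was 7.13 at E18.5 and between 5.07 and 6.37 elsewhere.

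Among the glucuronosyltransferases Ugt2b1 was low in every fetal pool (4.77 to 6.05, median 5.11) and at Day0 (5.55), and then 8.82 at Day3, 10.72 at Day7, 10.20 at Day14, 10.58 at Day21 and 12.06 in the adult. Its postnatal mean was 4.47 ± 0.76 log2 units above the fetal mean (adjusted p = 0.00168), and Day0 was the only postnatal pool within the fetal range. Ugt2b5 ranged from 4.26 to 9.79 (median 5.79) before and from 8.13 to 12.24 (median 11.57) after birth, a change of 4.54 ± 1.02. Ugt2b36 changed by 3.46 ± 1.06 and was not called when any stage up to E14.5, or any from Day7 on, was left out. Ugt2a3 was at most 4.61 before birth and reached 9.72 in the adult (3.02 ± 0.71); it was not called without the 3 stages on 1 array. Ugt2b34 (1.49 ± 0.51, adjusted p = 0.0547) and Ugt2b35 (2.18 ± 0.74, adjusted p = 0.0512) missed the threshold, and both were already at 7.80 or more from E15.5 to E18.5. Ugt2b37 was below 4.5 in every pool, and Ugt2b38 was between 4.50 and 4.91 in every pool but the adult.

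The Ugt3 genes, neighbours on chromosome 15, differed from each other. Ugt3a2 was 5.20 to 6.91 before birth, 6.03 at Day0, 7.62 at Day3, 10.16 at Day7 and 11.50 in the adult (3.42 ± 0.70). Ugt3a1 was 6.39 to 6.60 before birth and 7.88 in the adult, and its change of 0.35 was not called. A second probe set of Ugt3a1 gave 1.13.

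The glutathione S-transferases had a median change of 0.83 log2 units, against 2.60 for the Ugt2 and 0.28 for the Sult genes. Gsta3, an alpha class enzyme known for detoxifying the epoxide of aflatoxin, was 4.58 to 11.40 (median 7.12) before and 9.03 to 12.22 (median 11.98) after birth. Its change of 3.73 ± 1.18 (adjusted p = 0.0397) was called, although E15.5 to E18.5 were already high, and was likewise not called when any stage up to E14.5, or any from Day7 on, was left out. A second probe set of Gsta3 gave 2.63. Gstk1, the kappa class enzyme of mitochondria and peroxisomes, rose from 5.49 to 6.80 (median 5.81) to 6.32 to 10.48 (median 9.73), by 2.98 ± 0.60. Gstz1, which is also the maleylacetoacetate isomerase of tyrosine breakdown, rose by 2.18 ± 0.41. Gsta4, which conjugates lipid peroxidation products such as hydroxynonenal, rose by 1.37 ± 0.46, Gstt2 by 1.37 ± 0.22, Gstm2 by 1.38 ± 0.41 and Gstm7 by 1.20 ± 0.37. Gsta4, Gstm2 and Gstm7 were each lost when single stages were left out, and the second probe set of Gstm7 gave -0.06.

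Some Gst genes were high at all ages. Gstp1, the pi class enzyme, was 11.36 to 11.74 before birth and 10.73 to 13.08 after it, and Gsto1, of the omega class, was 9.68 to 11.09 over all pools; neither was called. Gstm1 was 9.09 to 10.60 before and 9.43 to 12.53 after birth (1.36 ± 0.46, adjusted p = 0.0532). Gstm3 showed no net change on the set used (-0.04), with levels of 9.49 to 9.62 from E13.5 to E17.5, 7.96 to 8.28 from E18.5 to Day14 and 10.97 at Day21. A second probe set of Gstm3, with a mean level of 4.88, gave 0.80. Gstm5 was the gene called lower: 9.19 to 10.47 (median 9.97) before and 7.83 to 9.71 (median 8.58) after birth, a change of -1.18 ± 0.32 (adjusted p = 0.0192). Its lowest 3 pools were Day14, Day21 and the adult, and it was not called without Day14.

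The other Gst genes were not called between fetal and postnatal stages. Gsta2, an alpha class enzyme, was 4.75 to 5.39 before and 4.94 to 9.43 after birth (1.89 ± 0.67, adjusted p = 0.0639). Gstt1, of the theta class, was 7.62 to 10.81 before and 8.90 to 11.31 after birth (1.30 ± 0.58, adjusted p = 0.132). Gstp3 peaked at Day7 with 10.02 and was 7.59 in the adult. Gstm6 was at most 6.53 up to Day14 and 7.91 and 8.64 at the last 2 ages, and Gstt3 was at most 5.29 up to Day14, 7.37 at Day21 and 6.36 in the adult. Gstm4 stayed between 6.29 and 7.54, and Gsto2 and Gstt4 were dim in every pool. Gstcd was 7.59 at E11.5 and 5.92 in the adult (-0.86, not called).

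Within fetal life 15 genes rose and 1, Gstcd, fell along a line from E11.5 to E18.5. The background is 4.40% of all genes rising and 12.0% falling. With arrays set to an equal housekeeping level the median of all genes moved from 0.04 to 0.48 log2 units over the span. All genes then split into 10.5% rising and 5.73% falling, and 21 of the 44 rose. Without E18.5, 11 rose, and the share of all genes was not counted there. Of the 15 rising genes 10 were also among the 18 called higher after birth. Both comparisons use the same fetal pools, and the overlap over all genes was not counted.

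The fetal rises were led by Gsta3, Sult1a1, Ugt2b5 and Ugt2b36, and the largest fetal step of each lay between E14.5 and E15.5. Gsta3 was 4.78, 4.58, 5.36 and 5.13 from E11.5 to E14.5 and then 8.87, 9.80, 10.39 and 11.40. Its fitted fetal rise was 7.70 ± 0.94 log2 units (adjusted p = 0.00151). Sult1a1 was 5.63, 6.03, 6.48 and 6.22 and then 9.00, 9.54, 10.72 and 11.27 (6.24 ± 0.66). Ugt2b5 was below 4.6 up to E14.5 and then 7.01, 8.18, 8.81 and 9.79 (6.21 ± 0.74), and Ugt2b36 was at most 5.76 and then 7.86, 8.57, 8.80 and 9.41 (5.04 ± 0.52). In all 4 genes each pool from E15.5 on was above each earlier pool. The fitted rise of each is larger than the difference between its lowest and highest fetal pools, as a line was fitted across a step. Gstp3 (3.45 ± 0.47), Gstt1 (3.43 ± 0.49), Sult1d1 (3.26 ± 0.54), Ugt2b35 (3.05 ± 0.45) and Ugt2b34 (2.57 ± 0.33) followed, then Gstm7, Gstz1, Ugt3a2, Gstt2, Gstm1 and Ugt2b1 with 1.07 to 2.24. Gstcd fell by 1.01, and its call was lost under quantile normalisation, with equal housekeeping levels, and without any one of E12.5, E14.5, E16.5 and E18.5.

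**Figure D4:**
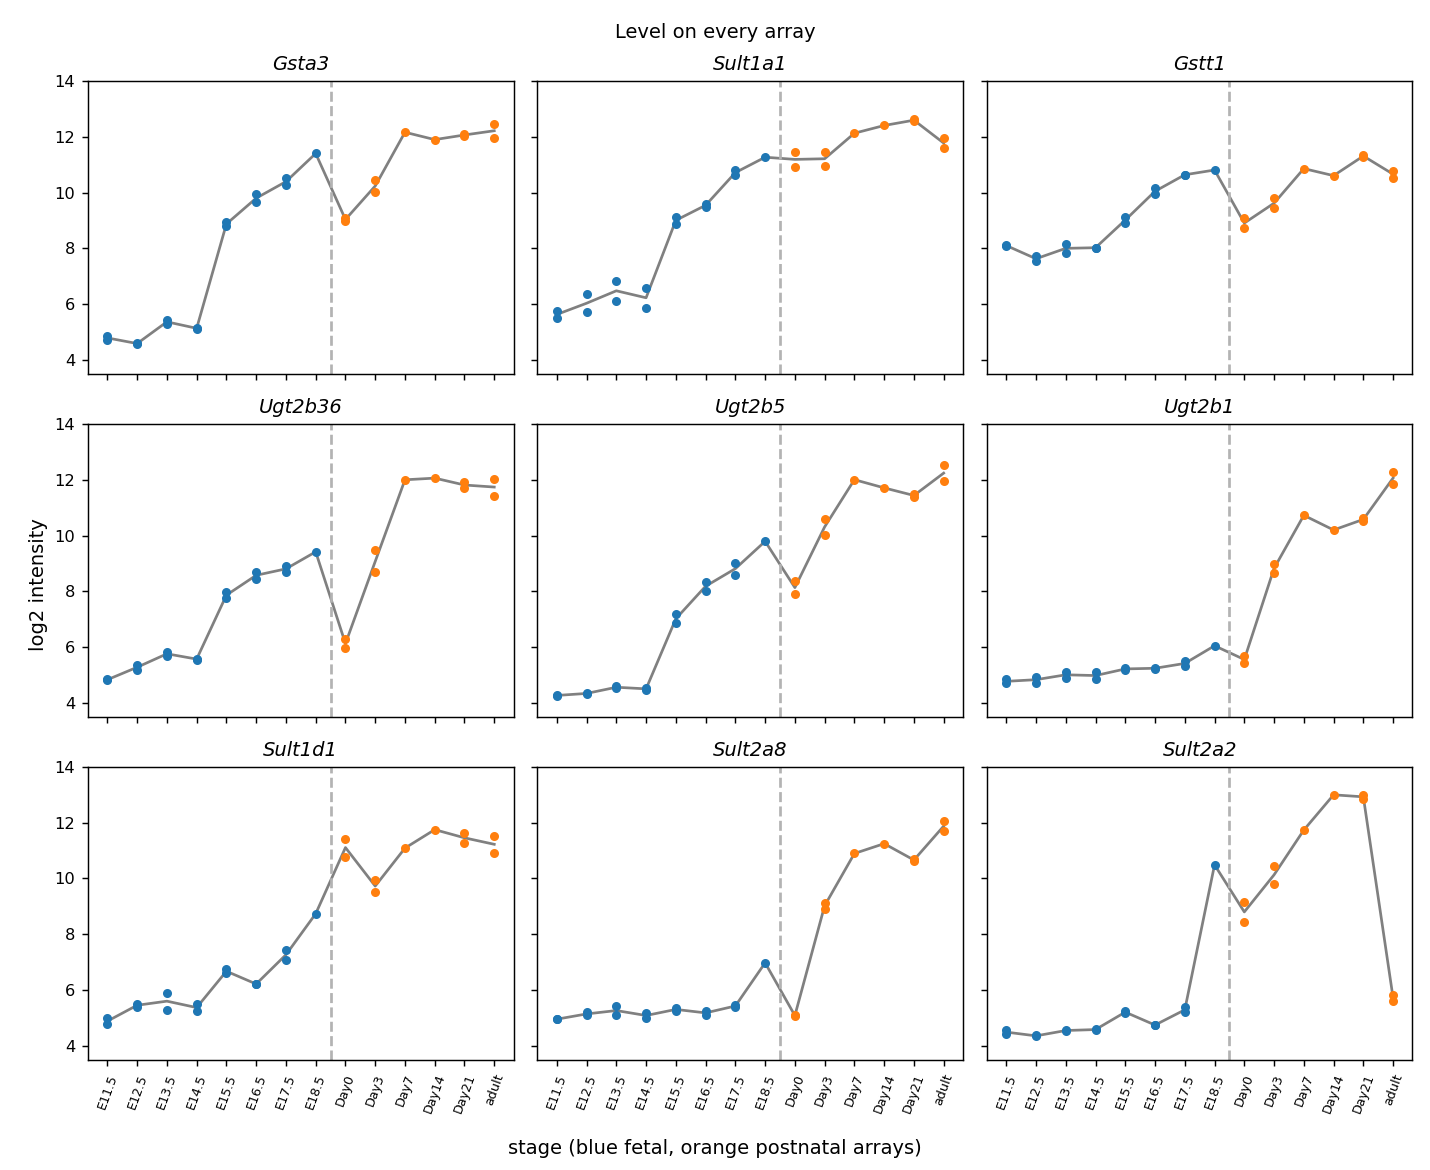
Log2 intensity (y axes) on every array (points; blue fetal, orange postnatal) and stage mean (grey line) against stage (x axes) for 9 genes; the dashed line is birth. Gsta3, Sult1a1, Ugt2b36 and Ugt2b5 climb at E15.5, Ugt2b1 and Sult2a8 at Day3, and Sult2a2 is low again in the adult.

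The step from E14.5 to E15.5, with 2 arrays on each side, held 9 calls, all upward: Gsta3 (3.74), Sult1a1 (2.78), Ugt2b5 (2.51), Ugt2b36 (2.29), Gstp3 (1.86), Ugt2b35 (1.45), Sult1d1 (1.30), Gstm5 (1.07) and Gstm7 (1.01). The background of this step is 2.45% of all genes, called in either direction. Of 11 hepatocyte markers 6 rose in the same step, and 3 of 8 macrophage markers. The other steps up to E16.5 held few. Against background shares of 2.76%, 1.04%, 0.0440% and 0.236% of all genes, limma called Ugt2b34 in the step to E12.5, Gstm3 in that to E13.5, 0 of the 44 genes in that to E14.5, and Gstt1 and Ugt2b5 in that to E16.5. The step to E17.5 held 2, Sult1a1 and Sult1d1 (0.747%). Some neighbouring fetal pools differed in sex-linked genes. Eif2s3y was 4.99, 7.95, 6.97, 4.19, 4.14 and 7.92 from E11.5 to E16.5, and Xist was 11.12 at E15.5 and 7.81 at E16.5. The part of this in the steps and in onsets at these ages was not tested.

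From E17.5 to E18.5 there were 5 rises and 1 fall, against 4.12% of all genes called. Sult2a2 rose by 5.20, Sult6b1 by 1.75, Sult2a8 by 1.55, Sult1d1 by 1.47 and Gsta3 by 1.01, and Gstm3 fell by 1.54. The E18.5 pool has 1 array, carried the muscle signal given above (5 of 9 muscle markers and 5 of 11 hepatocyte markers rose in this step) and differed from E17.5 in Xist and Eif2s3y. The part of these in the step was not tested.

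**Figure D5:**
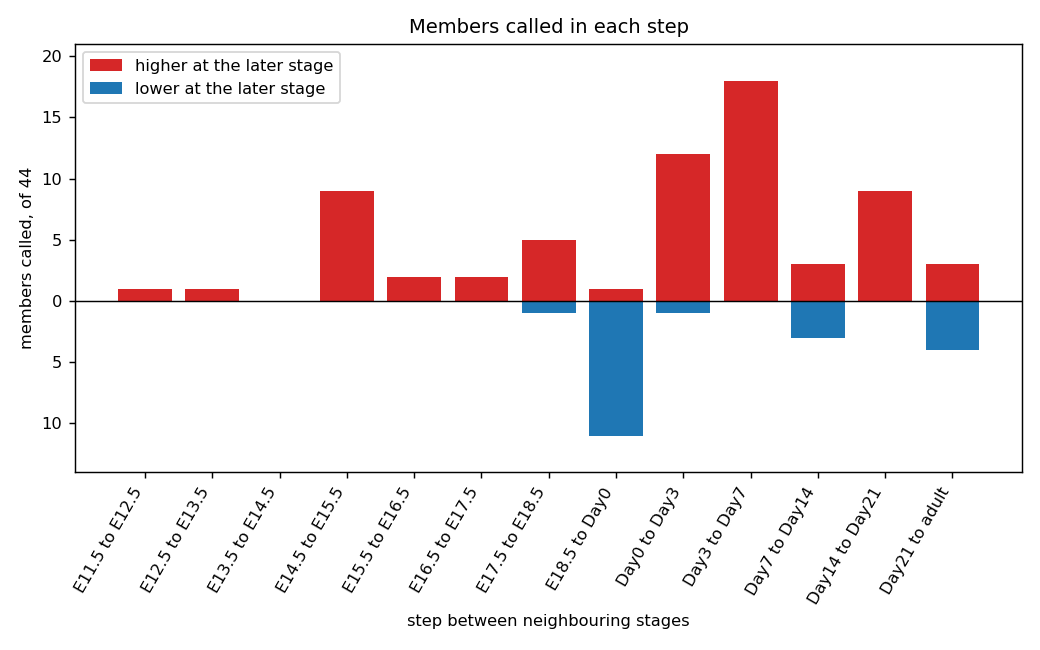
Number of the 44 genes called (y axis) in each step between neighbouring stages (x axis), with rises above and falls below 0. Rises are most frequent at E15.5 (9), Day3 (12), Day7 (18) and Day21 (9), and the step from E18.5 to Day0 holds 11 falls.

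The step at birth went mostly down. At Day0, 11 genes were lower than at E18.5 and 1 was higher, while 2.25% of all genes were called lower and 3.63% higher. Ugt2b36 was 9.41 at E18.5, 6.29 and 5.96 on the Day0 arrays, and 9.47 and 8.67 on the Day3 arrays. Its fall of 3.29 ± 0.27 was followed by a rise of 2.95 at Day3. Gsta3 was 11.40, then 9.10 and 8.97, then 10.44 and 10.02 (a fall of 2.37 ± 0.20). Ugt2b35 fell by 2.11 ± 0.29 and Gstt1 by 1.90 ± 0.19. Ugt2b34, Ugt2b5, Gstm1 and Gstp3 fell by 1.08 to 1.68, and Sult2a8, Sult6b1 and Sult2a2 by 1.69 to 1.89. In the same step 5 of 9 muscle markers fell, and of 11 hepatocyte markers 2 rose and 1 fell.

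The comparison with E17.5, which has 2 arrays and no raised Acta1 (5.42), separated these genes; the E17.5 and Day0 pools differ in Xist (7.27 and 10.25) and Eif2s3y (7.87 and 4.17). Day0 was lower than E17.5 for 8 genes, against 1.26% of all genes. Of the 11 genes lower than at E18.5, 6 were lower than at E17.5 as well: Ugt2b36 (-2.68), Ugt2b35 (-2.73), Gstt1 (-1.73), Ugt2b34 (-1.37), Gsta3 (-1.36) and Gstp3 (-1.05). Gsta4 and Gstm3 were the others. Sult2a2 turned its direction, being 3.51 higher at Day0 than at E17.5, and Gstm1 (-0.72), Ugt2b5 (-0.68), Sult2a8 (-0.34) and Sult6b1 (-0.06) were not called. Of the 11 genes, 8 were called higher again at Day3. Both steps use the same Day0 pool, so a low Day0 value favours both calls, and the share over all genes was not counted.

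Sult1d1 took the opposite course. It was 7.26 at E17.5, 8.74 at E18.5, 11.43 and 10.78 on the Day0 arrays, and 9.94 and 9.51 on the Day3 arrays. It rose by 2.37 ± 0.31 at birth (adjusted p = 7.04e-05) and fell by 1.38 at Day3. Sult1a1 was 11.27 at E18.5 and 11.19 at Day0 and was not called.

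After birth the rises came in steps at Day3, Day7 and Day21. At Day3, 12 genes rose and Sult1d1 fell (background 2.91%), led by Sult2a8 (3.94), Ugt2b1 (3.27), Ugt2b35 (3.19), Ugt2b36 (2.95) and Ugt2b5 (2.18). Of 11 hepatocyte markers 1 was called higher and 2 lower in this step. Measured from E17.5 to Day3, pools that differ in Xist (7.27 and 10.21) and Eif2s3y (7.87 and 4.15), 7 genes were higher and 2 lower, against 2.76% and 0.764% of all genes. Sult2a2 (4.84), Sult2a8 (3.60) and Ugt2b1 (3.41) led them, and Ugt2b36 and Gsta3, which had fallen at Day0, were not called over that span.

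At Day7, 18 genes rose and none fell, the most of any step. The background, 6.16% of all genes called in either direction, was also the highest of any step. Ugt2b36 (2.93), Gstk1 (2.66), Ugt3a2 (2.54), Gsta2 (2.51), Ugt2a3 (2.47) and Gsta3 (1.93) led. The Day7 pool has 1 array and carried kidney Umod and Slc34a1 (8.02 and 6.41, against 4.12 and 4.97 at Day3), while 2 of 5 exocrine pancreas markers rose and 7 of 8 erythroid markers fell in this step; the part of these in it was not tested. At Day14, with Umod at 4.46, 16 genes were higher than at Day3 and 1 lower, against 1.73% and 6.65% of all genes. The Day14 pool also has 1 array, and exocrine pancreas Ctrb1 and Cel were 7.65 and 7.38 there, against 6.08 and 5.36 at Day3. At Day21, with 2 arrays and Umod at 4.14, 22 were higher than at Day3 and 1 lower, against 3.15% and 4.45%. Gsta2, however, was 5.26 at Day3, 7.77 at Day7, 5.37 at Day14 and 9.11 at Day21. Sult1c2 was 6.27, 7.81, 6.58 and 7.00 at these ages. From Day7 to Day14 3 genes rose (Sult1c1, Sult2a2 and Gstm2) and 3 fell (Gsta2, Gstp3 and Sult1c2), against 5.73% of all genes called.

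At Day21, near weaning, 9 genes rose and none fell against Day14 (background 3.56% in either direction), and 6 of the 9 were Gst genes. Gsta2 rose by 3.74, Gstm3 by 2.76, Gstt3 by 2.08, Gstm6 by 1.61, Gstm2 by 1.60 and Gstm1 by 1.46, with Ugt2a3 (1.53), Ugt3a2 (1.07) and Sult1b1 (1.06). Of the 7 neighbouring Gstm genes 4 rose in this step. No hepatocyte marker of 11 was called in it, and 3 of 5 exocrine pancreas markers were lower at Day21.

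The line over the 6 postnatal stages called 0 of the 44 genes and 0% of all genes with limma. At an unadjusted p under 0.05 it held 23 of the 44 and 14.0% of all genes. With stage order as the time axis 1 of the 44 was called. A spline over all 14 stages called 33 of the 44, against 29.8% of all genes. Those not called by it were Gsto1, Gsto2, Gstt4, Sult1c1, Sult1e1, Sult2b1, Sult3a1, Sult4a1, Sult5a1, Sult6b1 and Ugt2b37.

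Between Day21 and the adult 3 genes rose and 4 fell (background 0.610% higher and 1.20% lower). Sult2a2 was 13.00 and 12.86 on the Day21 arrays and 5.80 and 5.62 on the adult arrays, a fall of 7.22 ± 0.20 log2 units (adjusted p = 2.58e-12). The adult level is under the dim level of 6, as were the pools up to E17.5 (at most 5.29), so no fold is given. Sult1c2 fell by 1.62 ± 0.10, Gstp3 by 1.04 ± 0.20 and Gstt3 by 1.01 ± 0.12. Ugt2b38 was below 5 in every earlier pool and 7.52 in the adult, a rise of 2.63 ± 0.10, and Ugt2b1 (1.48 ± 0.15) and Sult2a8 (1.22 ± 0.12) also rose. Without the first adult array 7 genes rose, and the share of all genes was not counted there. Gstp1 went from 12.15 to 13.08, less than the 1 log2 unit needed for a call.

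Sex-biased genes moved in the same step. Of 8 genes known as male-biased in adult mouse liver 7 rose, with a mean level of 6.44 at Day21 and 10.31 in the adult. Of 6 known as female-biased 4 fell, with a mean level of 8.54 and 5.76, and Cyp2b9 among them went from 11.05 to 5.38. Xist fell by 3.33 and Eif2s3y rose by 3.06. Each age is 1 pool of 3 livers, so age and the sex of the animals cannot be told apart in this step.

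Onset was taken as the first stage after a gene's lowest pool that was at or above the midpoint between its lowest and highest pools. By this rule 30 of the 44 genes rose (68.2%, against 7.32% of all genes), 1 fell (Gstm5; 10.4% of all genes) and 13 spanned less than 2 log2 units. Before birth 14 of the 30 reached their midpoint, and this split was not counted over all genes. Gsta3, Gstp3 and Ugt2b34 did so at E15.5, Gstm7, Gstt1, Sult1a1, Ugt2b35 and Ugt2b36 at E16.5, Ugt2b5 at E17.5, and Gstt2, Gstz1, Sult1d1, Sult2a2 and Sult6b1 at E18.5. Ugt2b1 and Sult2a8 followed at Day3 and 9 genes at Day7, which were Gsta2, Gsta4, Gstk1, Gstm1, Gstp1, Sult1b1, Sult1c2, Ugt2a3 and Ugt3a2. Gstm2 came at Day14, Gstm3, Gstm6 and Gstt3 at Day21, and Ugt2b38 in the adult. Gstm3 had also been above its midpoint of 9.47 from E13.5 to E17.5, before its lowest pool at E18.5. Gsta4 and Gstp1 had their lowest pool at Day0, and Sult6b1 had its highest at E18.5. At Day0 Gstm7, Gstt1, Gstz1, Sult6b1, Ugt2b34, Ugt2b35, Ugt2b36 and Ugt2b5 were below their midpoints again (Ugt2b36 6.12 against 8.44). Without E18.5 and Day7, 9 genes kept an onset before birth.

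The neighbours on chromosome 5 thus had onsets at 7 different stages, from E15.5 to the adult, with 2 genes flat. Over the 14 stages the course of Ugt2b1 was most like that of Sult2a8, which lies on chromosome 7 (r = 0.99), and that of Gsta3 was most like that of Ugt2b5 (r = 0.98). These are the values for 465 pairs of 31 genes that share all pools, with a median r of 0.72, and are given as a description.

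Genes of cofactor supply were measured beside the enzymes. Of 17 genes for making or moving the cofactors 7 rose after birth and 0 fell. Papss2, which makes PAPS, rose by 3.17 ± 0.36 with a step of 1.33 at birth, and Cth (2.79 ± 0.51) and Cbs (2.41 ± 0.49), which supply cysteine for glutathione, were already rising in fetal life. Ugp2, which makes UDP-glucose, rose by 1.91 ± 0.46, whereas Ugdh, which oxidises it to UDP-glucuronic acid, changed by 0.04 and was 6.96 at Day14, 9.35 at Day21 and 10.04 in the adult. Papss1 changed by -0.35 and was not called.

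Of 17 other genes of detoxification, among them methyl and acyl transferases, membrane-bound glutathione transferases and enzymes that do not conjugate such as epoxide hydrolases, 5 rose after birth and 1 fell. The epoxide hydrolase Ephx2 (3.81 ± 0.34), the glycine transferase Glyat (3.74 ± 0.69) and the microsomal glutathione transferase Mgst1 (2.82 ± 0.73) rose, while Mgst3 fell by 1.72. Of 9 genes of conjugate transport and hydrolysis 5 rose, among them the uptake carrier Slco1b2 (5.55 ± 0.73) and the export pumps Abcc2 (2.16 ± 0.25) and Abcc3 (1.69 ± 0.45). Abcc4 (-0.14) and Abcg2 (-0.87) were not called.

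Of 16 regulators 7 rose after birth and 0 fell. The xenobiotic receptor Nr1i3 (CAR) rose by 2.59 ± 0.19, Nr1h4 (FXR) by 2.50 ± 0.38, Ahr by 2.29 ± 0.37 and Nr1i2 (PXR) by 1.01 ± 0.18. Nfe2l2 (NRF2), the main activator at antioxidant response elements, changed by -0.41 and Cebpa by 0.93, and neither was called. At birth 3 of the 16 rose and 3 fell. Cebpa fell by 2.19 ± 0.23 (10.23 at E18.5, 8.04 at Day0, 9.90 at Day3) and Nfe2l2 by 1.72 ± 0.20 (9.25, 7.53 and 8.17), while Nr1i3 and Nr1i2 rose by 1.28 and 1.08. At E17.5 Cebpa was 9.46 and Nfe2l2 8.67.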

How the data were processed

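The series measured RNA of pooled mouse livers on 25 arrays. The authors deposited intensities on a linear scale, from 12.6 to 25175, made with RMA per the submitters' processing notes; the version and scaling of RMA are not stated in the sources. Their log2 was taken. Gene names came from the platform annotation given with the series (34958 of 45101 carried 1 symbol), and a gene was represented by the set with the highest mean over the 14 stages. Arrays of a stage were averaged for comparisons between classes and slopes; steps between stages used all 25 arrays with 1 mean per stage. Fits used limma 3.58.1 (lmFit, eBayes) in R 4.3.3. They were also run on simulated data with independent noise and a capped spread between stages, unlike these ordered stages. The number of pools limits the precision. Genes and lists were chosen with earlier results of these data known. Any of the 44 genes could be named; others come from fixed lists, up to 4 called and 2 other genes per list and comparison, except Xist and Eif2s3y. Some counts and genes were singled out after their values were seen. Alternatives covered scaling, probe sets, dim genes, variance model, replicate block, stage boundaries and omission of stages or arrays. Promoters, their coordinates and the gene order come from RefSeq (GRCm38.p6). The build of the values is not named, so no other coordinates are given.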

Additional observations from a re-analysis of the deposited data

Results flagged for a closer look

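The stage means of each gene were checked for 1 pool far from the others, separately over the 8 fetal and the 6 postnatal stages, which gave 88 series and 13 such pools. Chance alone gives about 1 in 20, and stages are ordered in development rather than replicates. Of the 13, 5 were E18.5, the pool with 1 array and raised muscle markers: Sult2a2 at 10.49 (next highest fetal pool 5.29), Sult6b1 at 7.13 (5.41), Sult2a8 at 6.97 (5.43), and the dim Sult1e1 at 4.66 and Sult3a1 at 4.65. All 5 are sulfotransferases.

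The adult stood apart for Ugt2b38 at 7.52 (next highest postnatal pool 4.91), Ugt3a1 at 7.88 (6.89) and the dim Sult5a1 at 5.52. Day0 stood apart on the low side for Ugt2b35 at 5.74 (next lowest 8.93) and Ugt2b34 at 8.33 (10.25). The others were Sult1d1 at Day3, low at 9.73, Gstm2 at E11.5, high at 6.07, and the dim Sult4a1 at Day14, at 5.49.

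The 3 Ugt1a probe sets were outside the comparisons because each is shared by 8 Ugt1a symbols, among them Ugt1a1, the bilirubin-conjugating enzyme. No single Ugt1a gene can be named from them. Their adult levels were 11.80, 12.13 and 11.19. One of them was 5.36 at E11.5, 5.63 at E14.5, 8.40 at E15.5, 9.38 at E17.5, 11.61 at E18.5, 11.36 at Day0 and 11.98 at Day3. All 3 were called higher after birth (by 3.79 to 4.81 log2 units) and rising in fetal life (by 4.05 to 6.09). At birth they changed by -0.29, -0.25 and -0.02 and were not called. Whether this differs from the fall of the Ugt2b genes was not tested.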

How the results depend on the processing

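The count of genes higher after birth (18) was 11 to 23 over all alternatives and 13 to 22 when 1 stage was left out. It was 11 without the 3 stages on 1 array. The count of lower genes (1) was 0 there, 0 with E18.5 counted as postnatal, and 0 to 1 when 1 stage was left out. Fetal rises (15) were 11 to 16 without single stages. The 1 fetal fall was 0 under quantile normalisation, equal housekeeping levels and late minus early stages, and 0 to 1 without single stages. The postnatal line gave 0, and 1 with stage order as the axis. At the adult step the 3 rises were 6 under quantile normalisation, 12 with Day14 in place of Day21, and 4 to 7 without single arrays. The 4 falls were 2 among genes with a mean level of at least 6 and 2 with Day14, where Gstt3 changed by 1.07 in the other direction; leaving out arrays gave 3 to 5. At birth, with E17.5 in place of E18.5, 2 rose, and Sult2a2 changed by 3.51 in the other direction; the 11 falls were 9 to 12 without a Day0 array. The Day21 step (9) held 5 among genes with a mean level of at least 6. Onsets before birth (14) were 5 at 75% of the way, with 25 from birth on, and 9 without E18.5 and Day7; with a range of 1 there were 2 fallers. Other counts stayed within 1.5 times. For settings that left out stages or arrays the share over all genes was not counted. A replicate block gave 10 falls at birth (Gstp3 was lost) and 85 calls over the 13 steps. First arrays deviated from their stage means partly together, with a median r over genes of 0.40 between stages (-0.57 to 0.73, 55 pairs). E18.5, Day7 and Day14 have a first array only, so their steps can carry such a shared shift. The settings with E17.5, with Day14 in place of Day21, and without E18.5 and Day7 were chosen after seeing the data, and the cause of the changes was not tested. Dim genes, 8 of the 44 below a level of 6 in every pool, limit what can be seen of their change.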
